A study of Homo sapiens with 15 samples.

Results

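Mitogen-activated protein kinases (MAP kinases) are serine/threonine kinases that pass signals from the cell surface and from stress to transcription, translation and the cytoskeleton. The mRNA of 9 genes is described here, of which 8 encode MAP kinases, MAPK3, MAPK4, MAPK6, MAPK7, MAPK8, MAPK9, MAPK13 and MAPK14, and MAPKAPK5 encodes a substrate kinase. They were chosen by gene symbol, with earlier results of these data known. All 9 were found among the 17769 genes of the knockout table and the 60510 genes of the resistance table. The study sequenced mRNA of K562 cells, an established BCR-ABL1-positive chronic myeloid leukemia line, in 15 libraries of 5 groups with 3 replicates each. Its question was what the loss of either isoform of the chaperone HSP90, or resistance to an inhibitor of HSP90, does to these cells. HSP90α-KO cells had received Cas9 and a guide RNA against HSP90AA1 from a lentiviral vector, and HSP90β-KO cells Cas9 and a guide RNA against HSP90AB1. The control of both knockouts was a line with the empty vector (EV). Knockout cells were sorted for a fluorescent protein and grown from single cells. PUHr cells had been kept for a long time in rising concentrations of PU-H71, an inhibitor that binds the N-terminal domain of HSP90, after which resistant clones were picked, and parental cells were kept in the solvent DMSO. The labels give neither the clone nor the number of clones per group, so clone and knockout, or clone and resistance, cannot be told apart. They also do not say whether replicates were separate cultures, and the p-values measure only the spread between these libraries.

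MAP kinases stand at the end of cascades in which a MAP kinase kinase kinase (MAP3K) phosphorylates a MAP kinase kinase (MAP2K), which in turn phosphorylates the MAP kinase. Conventional MAP kinases are switched on by phosphorylation of a threonine and a tyrosine in the activation loop and comprise the ERK, JNK and p38 families, whereas the atypical kinases ERK3 (MAPK6) and ERK4 (MAPK4) have a single acceptor serine there, are phosphorylated by p21-activated kinases (PAKs) and bind and activate the kinase MK5 (MAPKAPK5). In chronic myeloid leukemia cells the ERK branch is driven by BCR-ABL1, itself a client of HSP90.

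The difference between the classes can be read in the genes themselves. The windows below are 27 coding bases of each MAP kinase around its activation loop motif, read 5′ to 3′ on the strand of the gene from GRCh38 with the GENCODE v44 annotation, each within 1 exon. Capitals mark the 3 codons of the motif: threonine, a variable residue and tyrosine in the conventional kinases, and serine, glutamate and glycine in MAPK4 and MAPK6.
MAPK4, chr18:50715079-50715105, plus strand: ggttatctgTCAGAAGGGttggtaaca
MAPK6, chr15:52049993-52050019, plus strand: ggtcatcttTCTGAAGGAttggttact
MAPK3, chr16:30118086-30118112, minus strand: ggcttcctgACGGAGTATgtggctacg
MAPK7, chr17:19380855-19380881, plus strand: tacttcatgACTGAGTATgtggccacg
MAPK8, chr10:48420242-48420268, plus strand: tttatgatgACGCCTTATgtagtgact
MAPK9, chr5:180249025-180249051, minus strand: ttcatgatgACCCCTTACgtggtgaca
MAPK13, chr6:36136689-36136715, plus strand: gccgagatgACTGGCTACgtggtgacc
MAPK14, chr6:36075881-36075907, plus strand: gatgaaatgACAGGCTACgtggccact

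In these windows the middle codon of the conventional motif encodes glutamate in MAPK3 (ERK1) and MAPK7 (ERK5), proline in MAPK8 (JNK1) and MAPK9 (JNK2), and glycine in MAPK13 (p38δ) and MAPK14 (p38α). The 9 genes lie on 8 chromosomes, since MAPK14 and MAPK13 are neighbours on chromosome 6 with 16572 bases between them. MAPK4 (ENSG00000141639) spans 171740 bases on the plus strand of chromosome 18, from 50560087 to 50731826. MAPK6 (ENSG00000069956) lies on the plus strand of chromosome 15, from 51952106 to 52067375.

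Levels are given in CPM, the reads of a gene scaled to a common library size, and changes as log2 fold changes between group means. Between 19594381 and 26216730 reads per library fell on genes, so that 1 read corresponded to between 0.0381 and 0.0518 CPM. A gene was tested when its log2 CPM was -1 or more in at least 3 libraries of a table, which left 17039 genes of the knockout table and 16503 of the resistance table. It is called higher or lower when limma gave a p-value under 0.05 after Benjamini-Hochberg adjustment over all these genes, and a change is called large when the log2 fold change also lay beyond 1. Libraries of bulk cells do not separate fewer expressing cells from less RNA per cell, so these cannot be told apart. The tables were normalized separately, and levels were not tested across them.

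Within every group MAPK6 had the highest level of the 9 members per kilobase of merged exons, the scale on which genes can be compared. It stood at 20.3 ± 0.715 CPM per kilobase in EV and 24.9 ± 0.202 in parental cells (SD, n = 3). MAPK14 followed in EV with 12.3 ± 0.199, and the JNK, ERK1 and MK5 genes lay between 6.13 and 10.9. MAPK7 with 1.08 ± 0.134 and MAPK13 with 0.965 ± 0.0461 overlapped in EV, while all other neighbours in the EV order were separated in each library. MAPK4 was last in EV, HSP90α-KO, HSP90β-KO and parental cells, with means between 0.0177 and 0.0511 CPM per kilobase. In PUHr it was the 7th of the 9, at 3.52 ± 0.103, above MAPK7 at 1.74 ± 0.110 and MAPK13 at 1.46 ± 0.0678. Other pairs that overlapped were MAPK8 and MAPK14 in HSP90α-KO and MAPK3 and MAPK8 in HSP90β-KO. Merged exons join all annotated transcripts, and which of them these cells use was not tested.

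The panels of levels by library show the largest contrast for MAPK4 and narrower steps for MAPK6, MAPK13 and MAPK14.

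The comparison of PUHr with parental cells asks which genes differ in cells that grow in the presence of the HSP90 inhibitor. MAPK4, close to the limit of detection in parental cells, was detected in each PUHr library at 26.1 CPM or more. The p38 genes MAPK13 and MAPK14 and the ERK1 gene MAPK3 were also higher, and the JNK1 gene MAPK8 was lower. All 9 members were tested. Of them 4 were higher, against 25.6% of all tested genes, and 1 was lower, against 25.8%. MAPK4 had the only large change among the members, where 10.1% of all genes had one. The median log2 fold change was 0.10 over the members and 0.00 over all genes tested. Of all called genes 49.8% were higher, and 40.3% with median centring, so the background in PUHr depends on the scaling.

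For MAPK4, the gene of ERK4, 8, 13 and 6 reads were counted in parental replicates 1, 2 and 3, and 649, 633 and 620 in PUHr replicates 1, 2 and 3. This corresponds to 0.338, 0.545 and 0.281 CPM in parental cells and 26.1, 26.5 and 27.6 CPM in PUHr. All PUHr libraries lay far above all parental libraries, with no overlap. The log2 fold change was 5.86 (95% confidence interval 5.49 to 6.23, adjusted p = 1.57e-12). As summed reads, 1902 against 27, the ratio scaled to library size was 68.0 with a 95% counting interval (exact, Clopper-Pearson) of 46.6 to 103, which covers counting error only. Without its PUHr libraries MAPK4 would not have passed the filter, and the fitted change depends on what is added before the logarithm: with 5 CPM added it was 2.56 (adjusted p over its alternatives from 6.39e-27 to 2.99e-04). The annotated genes that overlap MAPK4 in the resistance table had 0 reads in each of its libraries.

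Its partner MAPK6, the gene of ERK3, showed no such contrast. It stood at 164, 163 and 165 CPM in the parental libraries and at 165, 167 and 161 CPM in PUHr. The groups overlapped, with a log2 fold change of 0.00 (95% confidence interval -0.05 to 0.06, adjusted p = 0.911). The level of MAPK4 per kilobase was therefore 0.206 ± 0.0754% of that of MAPK6 in parental cells and 14.1 ± 0.661% in PUHr (SD, n = 3). Counted together, MAPK4 and MAPK6 made up 38.2 ± 0.559% of the summed level of the 8 member MAP kinases per kilobase in parental cells and 39.2 ± 0.555% in PUHr. MAPKAPK5, whose product MK5 both atypical kinases bind, was at 80.8 ± 1.30 CPM in parental cells and 78.8 ± 1.19 CPM in PUHr (log2 fold change -0.04, adjusted p = 0.354). With each library centred on its median, MAPKAPK5 passed as lower (-0.08, adjusted p = 0.0492, up to 0.624 over its alternatives) and MAPK6 had a change of -0.04. MAPKAPK5-AS1, an antisense gene that overlaps MAPKAPK5, fell by 0.22 (adjusted p = 0.00862), and reads of these genes where they overlap cannot be told apart.

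MAPK13, the gene of p38δ, had 5.20, 6.04 and 5.21 CPM in the parental libraries and 10.6, 10.4 and 9.70 CPM in PUHr. Each PUHr library exceeded each parental library, by a ratio of means of 1.87. The log2 fold change was 0.89 (95% confidence interval 0.69 to 1.09, adjusted p = 1.47e-06) and 0.54 with 5 CPM added (adjusted p over its alternatives from 5.10e-09 to 0.00325). MAPK14, the gene of p38α, a kinase of the stress response, had 104, 103 and 100.3 CPM in parental cells and 123, 117 and 122 CPM in PUHr. Again the groups did not overlap, with a log2 fold change of 0.24 (adjusted p = 1.60e-05). The remaining p38 genes, MAPK11 (p38β) and MAPK12 (p38γ), were not among the members and rose by 0.36 (adjusted p = 1.02e-05) and 0.32 (adjusted p = 1.94e-06).

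In the ERK family, MAPK3 ranged from 30.0 to 31.3 CPM in parental cells and from 34.3 to 35.4 CPM in PUHr, a log2 fold change of 0.19 (adjusted p = 0.00224). MAPK7, the gene of ERK5, had overlapping libraries between 7.27 and 9.70 CPM (log2 fold change 0.10, adjusted p = 0.406). Its change ranged from 0.0002 to 0.17 with each library left out. Of the JNK genes, MAPK8 fell by 0.14 (adjusted p = 0.00197), from a range of 74.3 to 74.8 CPM to one of 66.5 to 69.0 CPM. MAPK9 was not called, with a log2 fold change of -0.04 (adjusted p = 0.376). The JNK3 gene MAPK10 had at most 5 reads in any library of the resistance table and is not in the knockout table. NLK and MAPK15 encode further atypical MAP kinases and were not among the members. NLK rose by 0.26 (adjusted p = 3.68e-05) and MAPK15 by 0.58 (adjusted p = 8.39e-05, or 0.36 with 5 CPM added).

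The plot of member changes sets the classes side by side. In PUHr 1 of the 2 atypical members was higher, and of the 6 conventional members 3 were higher and 1 lower, with MAPKAPK5 not called. Of all tested genes 25.6% were higher and 25.8% lower. Outside the members, the atypical kinase genes NLK and MAPK15 and the conventional MAPK11 and MAPK12 were higher too. No test was made between classes, since 2 genes are no sample of a class.

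Since PUHr cells were picked as clones, the chromosomal surroundings of MAPK4 were measured too. Among the 40 nearest expressed genes, 20 on each side over 15.8 Mb, 23 were higher and 5 lower in PUHr, with a median log2 fold change of 0.15, where 25.6% of all tested genes were higher and 25.8% lower. None came near the change of MAPK4: they ranged from -0.73 to 1.34. The nearest on each side were SKA1 with 0.43 and ME2 with 0.30. The same number of neighbours of MAPK13 and of MAPK14 had medians of -0.01 each. DNA copy number was not analysed here, and its part in these values was not tested.

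The plot along chromosome 18 shows MAPK4 apart from a band of neighbours slightly above 0. Over all 15 libraries, each taken as the difference from its control mean, the 5 of 11726 expressed genes whose pattern was most like that of MAPK4 were MAGEA4-AS1, TRIM22, IGFBP2, BMI1 and AMOTL1. Their Pearson r with MAPK4 lay between 0.982 and 0.991, a description that rests on the 3 PUHr libraries standing apart. IGFBP2, the gene of a secreted binding protein of insulin-like growth factors, went from 8.49 to 147 CPM in PUHr (log2 fold change 4.10). MAGEA4-AS1 changed by 2.88, the antiviral factor gene TRIM22 by 2.32, AMOTL1 by 1.09 and the Polycomb gene BMI1 by 0.50. Since these genes were picked for the pattern of MAPK4, their changes in PUHr follow from the choice and no p-value is given for them.

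The counts in the lists around the members in PUHr stand beside 25.6% of all tested genes higher and 25.8% lower. Upstream of the members, 10 of 23 tested MAP3K genes were higher and 7 lower, with a median of 0.10. Large rises were those of MAP3K15 (2.06, from 0.316 to 1.56 CPM), MAP3K9 (1.28, adjusted p = 2.10e-05) and MAP3K21 (1.17, adjusted p = 4.01e-04). MAP3K15 had at most 12 reads in a parental library and, like MAPK4, would not have passed the filter without its PUHr libraries; its adjusted p reached 0.0431 over its alternatives. MAP3K9 and MAP3K21 encode mixed lineage kinases, which act upstream of JNK and p38. Among 6 MAP2K genes 1 rose, MAP2K4 (0.11), and 2 fell, MAP2K3 (-0.48) and MAP2K1 (-0.17). MAP2K3 encodes an activating kinase of p38.

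The largest rises among the scaffolds were those of a pair that assembles the JNK cascade. MAPK8IP2 (JIP2) went from 3.21 ± 0.381 to 16.2 ± 1.02 CPM (SD, n = 3) and rose by 2.31 on the log2 scale (adjusted p = 1.20e-10). MAPK8IP1 (JIP1) went from 2.94 ± 0.659 to 5.99 ± 0.714 CPM and rose by 1.02 (adjusted p = 7.26e-05, up to 0.0441 over its alternatives). In both, each PUHr library lay above each parental library. Of the 10 scaffold genes tested, 3 were higher and 2 lower, with a median of 0.01. With 5 CPM added the changes shrank to 1.37 for MAPK8IP2, 0.47 for MAPK8IP1, 0.38 for MAP3K9, 0.30 for MAP3K15 and 0.22 for MAP3K21.

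The regulators and partners of ERK3 and ERK4 had 4 of 8 genes higher and 3 lower in PUHr, against 25.6% and 25.8% of all tested genes, and a median of 0.06. PAK1 fell by 0.30 (adjusted p = 9.79e-06), while USP20 and CCND3 each rose by 0.23. Of 8 genes of other MAP kinase-activated kinases 0 were higher and 2 were lower, MAPKAPK3 (-0.16) and MKNK2 (-0.11). The 9 MAP kinase phosphatases split evenly, with 3 higher, 3 lower and 3 not called, among them DUSP4 (0.79) and DUSP9 (-0.92). Of 9 genes of substrate transcription factors 4 were higher and 0 lower: DDIT3 (1.00), JUN (0.60), JUND (0.50) and MEF2A (0.17).

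The plot of lists shows medians near 0 for most layers of the cascades, with single genes far from them. Lists are described by counts and medians only.

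The mRNA of the knockout targets was measured too, which does not show how much protein remained. The study itself examined its knockout clones by Sanger sequencing and Western blotting. HSP90AA1 had 716, 683 and 713 CPM in EV and 92.6, 88.0 and 90.8 CPM in HSP90α-KO, a log2 fold change of -2.96 (adjusted p = 2.64e-30). HSP90AB1 had a mean of 2806 CPM in EV and 1913 CPM in HSP90β-KO, a log2 fold change of -0.55 (adjusted p = 1.34e-15) and a ratio of means of 0.682, so most of its mRNA remained. The other isoform was higher in each knockout: HSP90AA1 rose by 0.78 in HSP90β-KO (adjusted p = 2.12e-17) and HSP90AB1 by 0.24 in HSP90α-KO (adjusted p = 8.59e-09). Over its alternatives this rise of HSP90AB1 ranged from 0.0555 to 0.246, with an adjusted p of up to 0.0260. In PUHr the changes of HSP90AA1 and HSP90AB1 were -0.13 and -0.24, and under quantile normalization these turned to 0.08 and 0.05. The study reports more HSP90α protein in PUHr cells re-treated with the inhibitor, and a copy number gain that holds HSP90AA1. Neither protein nor copy number was measured here.

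Against EV, HSP90α-KO cells had more mRNA of the atypical kinase gene MAPK6 and less of MAPK13, MAPK14, MAPK3 and MAPKAPK5. No large change was seen among the 8 members tested, where 10.3% of all genes had one. Of these 8, 1 was higher, against 27.5% of all tested genes, and 4 were lower, against 26.6%. The median log2 fold change was -0.15 over the members and -0.01 over all genes tested.

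MAPK6 had 139, 131 and 131 CPM in EV and 168, 174 and 181 CPM in HSP90α-KO. All HSP90α-KO libraries lay above all EV libraries, with a log2 fold change of 0.38 (95% confidence interval 0.31 to 0.45, adjusted p = 5.92e-10). MAPK6 overlaps LEO1, a gene on the opposite strand, which rose by 0.74 (adjusted p = 2.23e-12), from 50.8 to 84.8 CPM. The strand setting of the counting is not stated, so reads of MAPK6 and of LEO1 where they overlap cannot be told apart. Of 40 expressed neighbours of MAPK6, 18 were higher and 6 lower in HSP90α-KO, against 27.5% and 26.6% of all tested genes, with a median of 0.12. These neighbours had a mean log2 CPM of 1 or more. In a fit of only the 12342 such genes, 3921 were higher and 3678 lower. MAPK4 was below the filter, with 6, 4 and 6 reads in EV and 3, 2 and 3 in HSP90α-KO. Each HSP90α-KO library lay below each EV library, but the ratio of summed reads was 0.574 (counting interval 0.213 to 1.42), so that a difference was not detectable at this depth.

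The atypical members made up 33.0 ± 0.553% of the summed level of the member MAP kinases per kilobase in EV and 40.6 ± 0.705% in HSP90α-KO (SD, n = 3). The libraries ranged from 32.5% to 33.6% in EV and from 39.9% to 41.3% in HSP90α-KO, without overlap. Almost all of this was MAPK6, as MAPK4 stood at 0.0672% of its level in HSP90α-KO. MAPKAPK5, the gene of their partner MK5, fell by 0.17 (adjusted p = 2.72e-04), from 82.5 to 87.9 CPM in EV to 74.5 to 76.5 CPM. The antisense gene MAPKAPK5-AS1 fell by 0.23 (adjusted p = 0.00225).

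Among p38 genes, MAPK13 had 6.42, 6.94 and 7.01 CPM in EV and 4.49, 4.51 and 4.52 CPM in HSP90α-KO. These groups were separated, with a log2 fold change of -0.58 (adjusted p = 2.58e-05), or -0.31 with 5 CPM added (adjusted p over its alternatives from 1.89e-05 to 3.71e-04). MAPK14 had 81.2, 83.3 and 83.7 CPM in EV and 71.2, 77.1 and 74.0 CPM in HSP90α-KO, again without overlap, and fell by 0.16 (adjusted p = 7.80e-04). Outside the members, MAPK11 fell by 0.72 (adjusted p = 2.07e-10) and MAPK12 by 0.54 (adjusted p = 2.76e-11). The p38 genes form pairs on chromosomes 6 and 22, where 1996 bases lie between MAPK12 and MAPK11, and the neighbours of MAPK13 and of MAPK14 had medians of 0.04 each.

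MAPK3 fell by 0.14 (adjusted p = 0.0224), from 32.8 to 34.6 CPM in EV to 28.7 to 31.9 CPM. This call was lost without EV replicate 1 (adjusted p = 0.0822), EV replicate 3 (0.0514) or HSP90α-KO replicate 3 (0.122) and without an intensity trend in the spread (0.0550), within a range over its alternatives from 0.00948 to 0.122. MAPK7 had a change of -0.22 (adjusted p = 0.118) and passed only without EV replicate 3 (0.0374) or HSP90α-KO replicate 1 (0.0342), with up to 0.347 over its alternatives. The JNK genes MAPK8 (0.03, adjusted p = 0.562) and MAPK9 (-0.02, adjusted p = 0.707) were not called. Among the atypical kinase genes outside the members, MAPK15 rose by 1.04 (adjusted p = 2.71e-06) from 2.11 to 4.44 CPM, or by 0.41 with 5 CPM added. NLK rose by 0.47 (adjusted p = 6.95e-11).

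Around the members in HSP90α-KO, 8 of 21 MAP3K genes were higher and 7 lower; here and in the lists that follow, the shares of all tested genes were 27.5% and 26.6%. MAP3K5, the gene of the stress-activated kinase ASK1 upstream of JNK and p38, had the only large change in this list, a fall from 7.92 ± 0.211 to 3.24 ± 0.808 CPM (SD, n = 3, log2 fold change -1.30, adjusted p = 2.41e-09). Of 9 phosphatases 3 were higher and 2 lower, with a median of 0.12. DUSP4, a nuclear phosphatase of MAP kinases, rose from 1.38 ± 0.345 to 5.49 ± 0.144 CPM (log2 fold change 1.95, adjusted p = 1.26e-08). With 5 CPM added these changes were -0.65 for MAP3K5 and 0.72 for DUSP4. Of 6 MAP2K genes 1 was higher, MAP2K4 (0.22), and 1 lower, MAP2K5 (-0.19), which encodes the activating kinase of ERK5.

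Among genes of MAP kinase-activated kinases 4 of 8 were higher and 1 lower, the rises including RPS6KA1 (0.46) and MAPKAPK2 (0.24), the gene of a p38 target kinase. Scaffolds had 4 of 10 genes higher, led by IQGAP1 (0.44), and 1 lower, SPAG9 (-0.08). In the module of ERK3 and ERK4 1 of 8 genes was higher, PAK2 (0.38, adjusted p = 1.54e-10), whose product phosphorylates both kinases, and 2 were lower, USP20 (-0.61) and CCND3 (-0.42). Substrate transcription factors had 4 of 10 genes higher, MEF2D, JUND, ELK1 and DDIT3, and 2 lower, ELK4 (-0.51) and MEF2C (-0.30).

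In HSP90β-KO against EV, MAPK14 and MAPK3 were higher and MAPK6 and MAPK8 lower, all by less than 0.20 on the log2 scale. That is 2 of 8 tested members higher, where 17.2% of all genes were, and 2 lower, where 17.2% were too. None of the 8 had a large change, against 4.48% of all genes. The members had a median of -0.03 and all genes one of 0.00. Of all called genes 50.1% were higher, and 36.7% with median centring, so small changes in this comparison depend on the scaling.

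MAPK14 had 91.2, 90.7 and 90.4 CPM in HSP90β-KO, above each of the EV libraries with their highest value of 83.7 CPM. It rose by 0.13 (adjusted p = 0.00662), a call lost with median centring (0.09, adjusted p = 0.0715, from 0.00198 over its alternatives). MAPK13 had 6.29, 6.06 and 6.45 CPM, overlapped with EV and was not called (-0.11, adjusted p = 0.427). The other p38 genes rose, MAPK11 by 0.40 (adjusted p = 1.17e-05) and MAPK12 by 0.24 (adjusted p = 5.83e-05).

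MAPK6 had 124, 125 and 126 CPM in HSP90β-KO, each below the lowest EV library. Its log2 fold change was -0.10 (adjusted p = 0.0318), and the call was lost without EV replicate 1 (adjusted p = 0.181), without HSP90β-KO replicate 1 (0.0970), 2 (0.0833) or 3 (0.0631) and without an intensity trend (0.129), with 0.00329 the lowest over its alternatives. MAPK4 had 7, 6 and 14 reads in HSP90β-KO, which overlap the 4 to 6 reads of EV, and a ratio of summed reads of 1.65 (counting interval 0.856 to 3.27). The atypical share of the member MAP kinases was 30.7 ± 0.319% (SD, n = 3), below the EV libraries. MAPKAPK5 was not called (-0.08, adjusted p = 0.0868), but passed without EV replicate 2 (0.0347) and with median centring (0.0121), up to 0.301 over its alternatives.

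MAPK3 rose by 0.17 (adjusted p = 0.0133), from an EV range of 32.8 to 34.6 CPM to one of 36.3 to 39.3 CPM. It was not called without HSP90β-KO replicate 1 (adjusted p = 0.0851) or with median centring (0.0638), where 0.00527 was the lowest value over its alternatives. MAPK8 had 95.3 to 99.9 CPM, which overlaps the 99.7 to 109 CPM of EV, with a log2 fold change of -0.11 (adjusted p = 0.0391). That call was lost without EV replicate 1 (0.186) or 3 (0.125), HSP90β-KO replicate 1 (0.0941) or 2 (0.156), or an intensity trend (0.159), with 0.00541 the lowest value. MAPK7 (0.10, adjusted p = 0.559) and MAPK9 (0.03, adjusted p = 0.620) were not called. Outside the members, the atypical kinase genes NLK (0.23, adjusted p = 2.74e-05) and MAPK15 (0.71, adjusted p = 7.07e-04, or 0.26 with 5 CPM added) were higher.

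In HSP90β-KO the counts in the lists stand beside 17.2% of all tested genes higher and 17.2% lower. Of 21 MAP3K genes 2 were higher and 4 lower, of 6 MAP2K genes 1 was higher, MAP2K3 (0.31), and of 10 scaffolds 1 was higher, MAPK8IP3 (0.19), and 1 lower, KSR1 (-0.10). Phosphatases had 1 of 9 genes higher, DUSP5 (0.44), and 3 lower, with a median of -0.17. DUSP4 fell from 1.38 to 0.535 ± 0.143 CPM (log2 fold change -1.23, adjusted p = 3.91e-05), and DUSP9, a cytoplasmic phosphatase, from 1.15 to 0.532 ± 0.259 CPM (-1.06, adjusted p = 0.00345). Both rest on few reads, and with 5 CPM added their changes were -0.20 and -0.15. In the module of ERK3 and ERK4 1 of 8 genes was higher, CCND3 (0.23), and 4 were lower, NCOA3 (-0.33), SEPTIN7 (-0.28), CDC14A (-0.27) and PAK2 (-0.11). Among MAP kinase-activated kinases 1 of 8 was higher, RPS6KA4 (0.23), and 3 lower, with MKNK2 at -0.36, and among 10 transcription factors MEF2C rose (0.46) and ELK4 fell (-0.26).

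Comparing the knockouts with each other tests the difference between them, which each comparison with the shared EV libraries does not. MAPK6 and MAPK8 were higher in HSP90α-KO, and MAPK13, MAPK7, MAPK3, MAPK14 and MAPKAPK5 were lower. This makes 2 of 8 members higher, against 30.1% of all tested genes, and 5 lower, against 29.8%, with no large change where 12.7% of all genes had one. The median was -0.19 over the members and -0.01 over all genes. Of all called genes 50.3% were higher, and 56.5% with median centring.

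Between the knockouts MAPK6 differed by 0.48 (adjusted p = 4.33e-12), and its lowest HSP90α-KO library at 168 CPM lay above its highest HSP90β-KO library at 126 CPM. MAPK13 differed by -0.47 (adjusted p = 2.94e-04, and -0.25 with 5 CPM added), MAPK14 by -0.29 (adjusted p = 1.75e-07) and MAPK3 by -0.31 (adjusted p = 1.08e-05), each with separated libraries. For MAPK8 the difference was 0.14 (adjusted p = 0.00475), not called under quantile normalization (0.0546) or without an intensity trend (0.0514), with 4.52e-04 the lowest value. MAPK9 was the only tested member not called (-0.05, adjusted p = 0.307). The p38 genes outside the members differed by -1.11 for MAPK11 (adjusted p = 1.62e-14) and -0.79 for MAPK12 (adjusted p = 9.01e-15), while NLK was higher by 0.24 and MAPK15 was not called (0.33, adjusted p = 0.0700). MAPK15 passed without HSP90α-KO replicate 3 (0.0214) and under 5 other settings, with up to 0.291 over its alternatives. MAPK4 had 8 reads in all HSP90α-KO libraries together and 27 in HSP90β-KO, a ratio of 0.348 (counting interval 0.137 to 0.788), and a fit of all 17769 genes without a filter gave a log2 fold change of -1.03 (adjusted p = 0.0185).

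MAPK7 differed by -0.32 between the knockouts (adjusted p = 0.0216) and by -0.17 with 5 CPM added. B9D1, which overlaps it on the opposite strand, had 8.16 CPM in HSP90α-KO and 10.2 CPM in HSP90β-KO and differed by -0.33 (adjusted p = 0.0133), so reads of MAPK7 and of B9D1 where they overlap cannot be told apart. The same holds here for LEO1, which differed by 0.77, beside MAPK6 and for MAPKAPK5-AS1, which differed by -0.29, beside MAPKAPK5. The call was lost without HSP90α-KO replicate 2 (adjusted p = 0.0833) or 3 (0.0679) or HSP90β-KO replicate 2 (0.0691), with 0.00522 the lowest value. MAPKAPK5 differed by -0.09 (adjusted p = 0.0359), a call lost without HSP90α-KO replicate 2 (0.0523) or 3 (0.0887), HSP90β-KO replicate 1 (0.0911), 2 (0.0530) or 3 (0.103), or an intensity trend (0.0637), and with median centring (-0.05, 0.293), with 0.0135 the lowest value. In the surrounding lists, DUSP4 differed by 3.18 (adjusted p = 5.88e-13), DUSP9 by 1.51, DUSP6 by 1.20 and MAP3K5 by -1.63 (adjusted p = 2.02e-11). With 5 CPM added these differences were 0.92, 0.26, 0.15 and -0.87. DUSP4, DUSP9 and DUSP6 rest on few reads, with at most 14, 21 and 10 in an HSP90β-KO library. Of the 9 phosphatases 6 were higher in HSP90α-KO and 1 lower, with a median of 0.22; for this and the other lists the shares of all tested genes were 30.1% higher and 29.8% lower. The module of ERK3 and ERK4 had 4 of 8 genes higher, among them PAK2 (0.49), and 2 lower, USP20 (-0.69) and CCND3 (-0.65). The other lists had 9 of 21 MAP3K genes, 1 of 6 MAP2K genes, 4 of 8 MAP kinase-activated kinases, 6 of 10 scaffolds and 5 of 10 transcription factors higher, and 5, 2, 1, 2 and 2 lower.

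Markers of the cell line and of other cell types were measured beside these results. The 9 erythroid markers of K562 cells were present in both tables, with TFRC the most abundant. Their summed level was 1000.02, 1019.9 and 1007.5 CPM in EV, 893, 898 and 869 CPM in HSP90α-KO and 902, 912 and 898 CPM in HSP90β-KO. In the resistance table it was 2978, 2968 and 2939 CPM in parental cells and 2209, 2236 and 2156 CPM in PUHr, so the sum was lower in each knockout and in PUHr than in its control. In HSP90α-KO 2 of the 9 were higher and 6 lower, including HBG2 (-1.22) and HBZ (-1.04), against 27.5% and 26.6% of all tested genes. In HSP90β-KO 0 were higher and 5 lower, against 17.2% each, and in PUHr 2 were higher and 6 lower, against 25.6% and 25.8%. Between the knockouts 2 were higher in HSP90α-KO, GATA1 (0.47) and KLF1 (0.90), and 6 lower, among them HBG2 (-1.20), against 30.1% and 29.8%.

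The T cell markers, of which 4 of 5 are in the knockout table and all 5 in the resistance table, summed to 8.61, 9.40 and 9.64 CPM in EV, 4.44, 5.49 and 4.36 CPM in HSP90α-KO and 18.9, 19.5 and 17.4 CPM in HSP90β-KO, with CD3D the most abundant. CD3E fell by 2.85 in HSP90α-KO, where CD3G had at most 1 read per library, and CD3G and CD3D were higher in HSP90β-KO by 1.59 and 1.26. With 5 CPM added these changes were -0.62 for CD3E, 0.30 for CD3G and 0.76 for CD3D. Against EV, 0 of the 4 were higher and 3 lower in HSP90α-KO, beside 27.5% and 26.6% of all tested genes. In HSP90β-KO 2 were higher and 0 lower, beside 17.2% each. Between the knockouts 1 of the 4 was higher in HSP90α-KO, CD5 (0.75, adjusted p = 0.0336, with at most 18 reads per library), and CD3D, CD3E and CD3G were lower, against 30.1% and 29.8% of all tested genes. CD3G differed by -4.19, CD3E by -3.35 and CD3D by -1.69. These sizes shrank with 5 CPM added, to -0.45, -0.85 and -0.95. In the resistance table the sum lay between 10.99 and 11.02 CPM in parental cells and between 8.11 and 8.84 CPM in PUHr. Of the 5 monocyte markers only LYZ is in the knockout table, and LYZ held almost all of the sum in the resistance table. The sum was 39.2 to 43.9 CPM in EV, 57.6 to 63.6 CPM in HSP90α-KO, 29.8 to 31.8 CPM in HSP90β-KO, 28.3 to 30.9 CPM in parental cells and 23.4 to 25.3 CPM in PUHr. Of the 5 fibroblast markers only COL1A1 is in the knockout table, at or under 2.83 CPM. In the resistance table, which holds all 5, their sum went from at least 9.82 CPM in parental cells to at most 6.01 CPM in PUHr, and within it COL1A2 went from a mean of 5.48 to 0.157 CPM and COL1A1 from 3.84 to 5.17 CPM. Of the 3 tested, 1 was higher, COL1A1, and 1 lower, COL1A2, against 25.6% and 25.8% of all tested genes. COL1A2 had at most 5 reads in a PUHr library and would not have passed the filter without its parental libraries. The part of these differences in the values of the members was not tested.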

How the data were processed

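Polyadenylated RNA of 15 K562 libraries was sequenced as single reads with a stranded kit. Trimming, alignment to GRCh38 (RNA STAR), counting (featureCounts) and normalization (edgeR) were done by the authors on Galaxy, and the deposited values of both tables are log2 CPM. Whole reads were recovered from them, and CPM here is the linear value less the floor set by the prior count. Entries without an identifier, 30 and 114, held 0.0270% to 0.0363% of the reads of a library and were left out.

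Log2 CPM was tested with limma 3.58.1 in R 4.3.3 (lmFit, contrasts, eBayes with an intensity trend), 1 fit per table, with Benjamini-Hochberg adjustment over all tested genes. The steps were tested on simulated data. Members and lists were chosen with earlier results of these data known. Named genes were all members, HSP90AA1 and HSP90AB1, per list and comparison up to 4 genes with an adjusted p under 0.05, a log2 fold change beyond 1 and separated groups, and the 5 genes most like MAPK4. Other list genes, MAP kinases and overlapping or neighbouring genes were named after their values were seen. Alternatives were the filter, 1 or 5 CPM added, quantile normalization, median centring, no trend, a replicate block, voom, only the 6 libraries compared, and each library left out. They were applied to the other MAP kinases, the targets and the list genes after seeing the data. Some listed genes are not reported here.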

Additional observations from a re-analysis of the deposited data

How the results depend on the processing

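Of the member log2 fold changes under the alternatives, 548 kept direction and side of the threshold, 29 kept direction but were no longer called, 5 became called and 9 changed sign. The number of members called in HSP90β-KO against EV, 4, was 2 without an intensity trend and 1 to 5 with each library left out: 2 without EV replicate 1, 1 without HSP90β-KO replicate 1 and 2 without HSP90β-KO replicate 2. The cause was not tested. Sign changes were seen for members that were not called. MAPK6 in PUHr was -0.043 with median centring and -0.0077 to 0.019 with each library left out. MAPK8 in HSP90α-KO was -0.023 under quantile normalization and -0.0084 to 0.058 with each library left out. MAPK9 in HSP90α-KO ranged from -0.055 to 0.0099 and MAPK7 in HSP90β-KO from -0.0035 to 0.17 with each library left out. MAPK9 in HSP90β-KO was -0.011 with median centring. In PUHr HSP90AA1 was 0.081 and HSP90AB1 0.047 under quantile normalization. With a replicate block the members called numbered 5, 4, 7 and 5 in the order HSP90α-KO, HSP90β-KO, HSP90α-KO against HSP90β-KO, and PUHr, as in the fit without it. In the same order 4610, 2842, 5059 and 4264 of all tested genes were higher with the block, and 4439, 2823, 5016 and 4290 lower. Depth limits MAPK4 in the knockout table, where each library held at most 14 reads, and fold changes of genes with low levels depend on the value added before the logarithm, as for MAPK13 in PUHr, at 5.20 to 10.6 CPM, with 0.89 and, with 5 CPM added, 0.54.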
